A study of Arabidopsis thaliana with 8 samples.

Results

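The 4 root libraries of an Arabidopsis ribosome profiling experiment are described here on their own, out of 8 libraries in all, over all 27416 coding sequences in the deposited table. Members were taken by the word root in the library titles, and no value entered that choice. The libraries came from roots of seedlings of the Col ecotype, 4 days after imbibition and 3 h after lights on, grown in shaken liquid medium with sucrose. No mutant or transgene was involved, and the only difference the labels give between the libraries is the polysome extraction buffer. With 1 library per buffer, an effect of the buffer cannot be told apart from other differences between libraries. Buffer C held 200 mM Tris, 30 mM KCl and 15 mM MgCl2. Buffer D held 100 mM Tris, 40 mM KCl and 20 mM MgCl2, and buffer B had the same salts in 200 mM Tris. Buffer A held 200 mM Tris, 50 mM KCl and 25 mM MgCl2. Detergent, deoxycholate, a reducing agent, DNase and the elongation inhibitor cycloheximide were shared by all buffers. Each buffer gave 1 root library, and nothing in the labels says that the libraries came from separate plants or cultures, so the spread between them may be technical.

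Ribosome profiling sequences the short stretches of mRNA that a ribosome shields from nuclease. The share of footprints on a coding sequence is the share of engaged ribosomes found there, and it rises with the number of mRNA molecules, with ribosomes per mRNA and with the length of the coding sequence. A young root devotes its translation to elongating cells, to uptake of water, nitrogen and phosphate, to cell walls, and in crucifers to defence compounds such as glucosinolates and the beta-glucosidases stored in endoplasmic reticulum (ER) bodies. Values below are in CPM, footprint counts scaled to the library's total so that 10000 CPM are 1% of it, or in percent of that total, and are given as mean ± SD over the 4 root libraries (n = 4) unless a library is named. They were not divided by coding length, so the order of genes is an order of footprints, not of protein made per mRNA. In whole roots, fewer cells of a type and less RNA per cell cannot be told apart, nor can mRNA level and translation.

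The libraries differed in depth, with 1802349 counts in buffer C, 1120218 in D, 1646715 in B and 3410266 in A. At least 1 count was found for 16814, 15252, 17288 and 17986 genes in the same order, and after thinning to the smallest total for 16565, 15252, 17057 and 17389. Buffer D, the shallowest library, stood apart. Among the 1978 genes with a mean of at least 100 CPM, the SD of the log2 ratio between libraries was 0.26 to 0.30 for pairs of A, B and C and 0.38 to 0.42 for pairs with D. Of 5993 genes with at least 20 CPM in each of the other libraries, 4 had no count in D, while no gene was missing in this way from A, B or C. Results that rest on D are therefore also given without it or by library.

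Root footprints were concentrated on a small part of the genome. Of the 27416 genes, 19793 had a count in some root library, 13528 had a count in all 4, and 7623 had none. The 10 highest genes of each library held 5.72 ± 0.239% of its counts, the 100 highest 19.7 ± 0.393% and the 1000 highest 54.9 ± 0.614%. A set of 778.5 ± 24.7 genes was enough to hold 50% of the counts, with 765 genes in buffer C, 753 in D, 787 in B and 809 in A. By mean level, 102 genes of at least 1000 CPM held 19.8 ± 0.343% of the footprints, 1876 genes between 100 and 1000 CPM held 48.4 ± 0.100%, and 8674 genes between 10 and 100 CPM held 28.5 ± 0.234%. The ranking was shared by the libraries at its top. The 5 highest genes were the same 5 in each library, and 8 genes were among the 10 highest of all 4 libraries, as were 80 genes among the 100 highest and 410 among the 500 highest.

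The gene with the most footprints was PYK10 (AT3G09260), the beta-glucosidase that fills root ER bodies. It stood at 12890 CPM in buffer C, 11150 in D, 13372 in B and 13434 in A. PYK10 ranked highest in every library, and its level in D lay below the other 3. ATMS1 (AT5G17920), the cytosolic methionine synthase, was the next at 11418 CPM in C, 10558 in D, 10195 in B and 9384 in A. It was highest in the buffer with the least salt and lowest in the buffer with the most. The gene ranked below these, HOG1 (AT4G13940), encodes S-adenosylhomocysteine hydrolase, which clears the product of methylation reactions. HOG1 had 5229 CPM in C, 5941 in D, 5191 in B and 4781 in A, below ATMS1 in every library.

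The next places went to protein synthesis, chaperones and energy metabolism. AT5G60390, counted here with the elongation factor 1A genes by its identifier, averaged 4996 ± 325 CPM, and LOS1 (AT1G56070), elongation factor 2, averaged 4817 ± 413 CPM. These means did not differ beyond their spread. HSC70-1 (AT5G02500), a cytosolic chaperone, averaged 4016 ± 375 CPM. AAC1 (AT3G08580), the ADP/ATP carrier of the inner mitochondrial membrane, had the same mean with a much smaller spread, 4016 ± 64.8 CPM. The aldolase FBA8 (AT3G52930) averaged 3972 ± 235 CPM, and its libraries overlapped with those of both. Below them came the glyceraldehyde-3-phosphate dehydrogenases GAPC1 (3478 ± 103 CPM) and GAPC2 (2877 ± 228 CPM), separated by the glutathione transferase GSTF9 (3010 ± 313 CPM).

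From rank 12 to rank 30 the means ran from 2652 CPM for PBP1, a lectin that binds PYK10, to 1924 CPM for the chaperone HSP81-2. Each pair of neighbours in this stretch differed by less than the larger of their SDs. It held the S-adenosylmethionine synthetase MTO3 (2594 ± 160 CPM), the plasma membrane proton pump HA2 (2537 ± 140 CPM) and NAI2 (2485 ± 310 CPM), which is needed to form ER bodies. It also held the annexin ANNAT1 (2325 ± 247 CPM), the enolase LOS2 (2314 ± 48.7 CPM), the cyclophilin ROC5 (2268 ± 198 CPM) and the aquaporin PIP2A (2037 ± 113 CPM). AT1G07940 (2021 ± 238 CPM) was counted with the elongation factor 1A genes by its identifier. DR4 (2345 ± 266 CPM) and AT3G32980 (2322 ± 167 CPM) are named without a role. Nitrogen enters amino acids through GSR2, a cytosolic glutamine synthetase at 2182 ± 142 CPM, and GLT1, the NADH-dependent glutamate synthase at 2222 ± 101 CPM. Some members of this stretch moved much more between libraries. The extensin EXT3 (AT1G21310), a structural cell wall protein, had 1946 CPM in C, 1469 in D, 3173 in B and 2821 in A. AT3G54580 had 1960, 1362, 2503 and 2371 CPM in the same order, likewise lower in C and D than in B and A. The mitochondrial loci ATMG01360 and ATMG01190 and the chromosome 2 locus AT2G07698, which are described with the organelles, were highest in D.

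**Figure D1:**
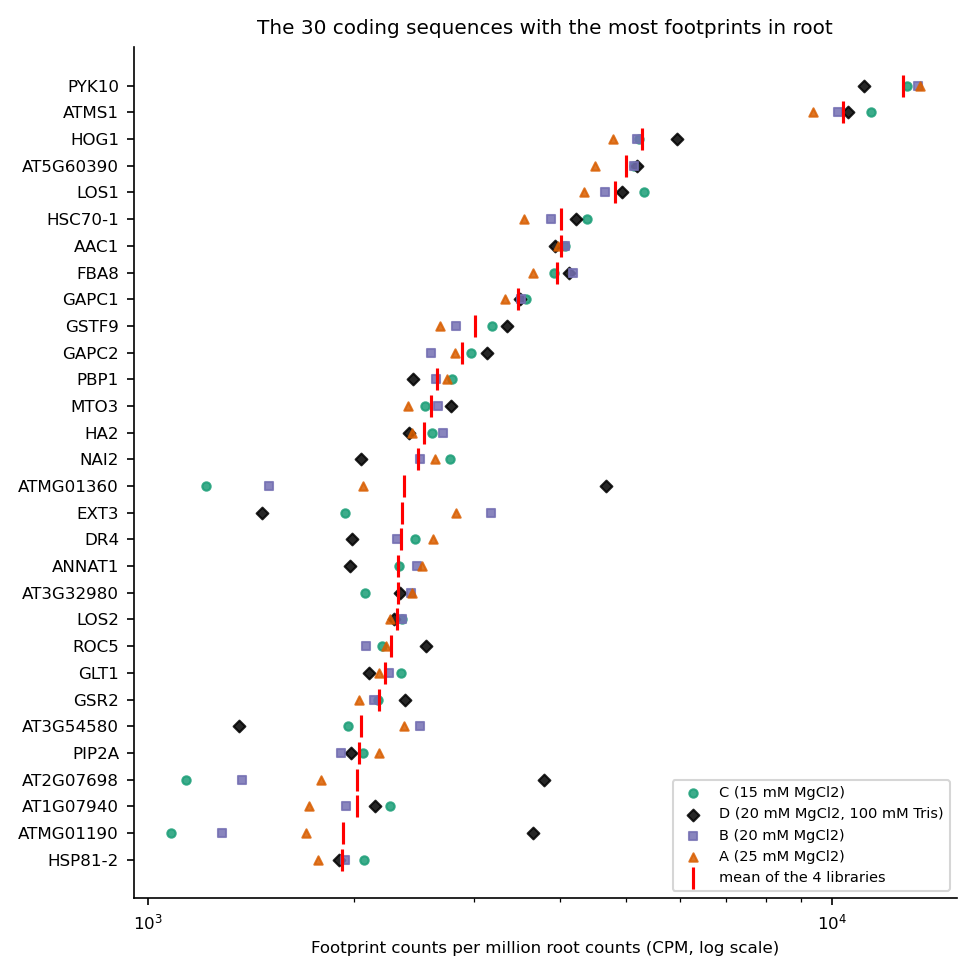
CPM of the 30 genes with the most footprints in root, on a log axis; each symbol is 1 library, the red tick is the mean, and genes without a symbol are shown by identifier. PYK10 and ATMS1 lie apart from the rest, and the 3 organelle-related loci and EXT3 have the widest spread.

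Gene lists by pathway gave the share of footprints on their members. The lists are chosen sets, not whole processes, and a share also depends on how many genes are listed. The 31 lists, with 11 further lists built from RefSeq symbols, are given in percent of all footprints. The 31 held 502 genes, 1.83% of the table, and together received 22.9 ± 0.591% of the footprints. Among these lists the methionine cycle led with 2.79 ± 0.166% over 14 genes, all of them counted in every library. This cycle makes methionine, turns it into the methyl donor S-adenosylmethionine and recovers the product of each methylation. Its share was 2.91% in C, 2.92% in D, 2.75% in B and 2.57% in A, above the ER body list in every library but A. ATMS1 alone held 37.2 ± 1.38% of the list. The S-adenosylmethionine synthetases MTO3, MAT3 (1838 ± 104 CPM), SAM-2 (1507 ± 100 CPM) and SAM1 (1099 ± 77.4 CPM) followed, with the methionine synthase MS2 (1569 ± 76.0 CPM) and the adenosine kinase ADK1 (1187 ± 116 CPM).

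The ER body list, 18 genes for the beta-glucosidases, their lectins and their partners, received 2.58 ± 0.195%. It took 2.66% in C, 2.29% in D, 2.69% in B and 2.69% in A, and 2.68% on average without D. PYK10 held 49.2 ± 0.743% of it. Its close relatives BGLU21 (1890 CPM in C, 1818 in D, 1955 in B and 2029 in A) and BGLU22 (1641 ± 204 CPM), the lectins PBP1 and JAL34 (1664 ± 210 CPM) and NAI2 made up most of the remainder.

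Translation factors received 2.28 ± 0.189% of the footprints over 23 genes, with the initiation helicase EIF4A1 at 1128 ± 93.0 CPM below the elongation factors. Their share was 2.44% in C, 2.42% in D, 2.23% in B and 2.04% in A. The 66 ribosomal proteins that RefSeq names by symbol, not the full set, added 1.46 ± 0.0589%, led by RP1 at 1601 ± 129 CPM, and ubiquitins added 0.503 ± 0.00576%. The cytosolic, ER and organellar chaperones of the HSP70 and HSP90 families received 1.55 ± 0.0945%, and further ER folding proteins, led by the disulfide isomerase PDIL1-1 (804 ± 36.5 CPM) and the calreticulin CRT1a (770 ± 35.5 CPM), received 0.405 ± 0.0176%.

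Glycolysis and fermentation took 1.87 ± 0.0614% of the footprints. FBA8, GAPC1, GAPC2 and LOS2 led, followed by the phosphoglycerate kinase PGK at 1032 ± 42.7 CPM. The list for sucrose entry and cleavage took 0.122 ± 0.00499%, in roots grown on sucrose. It was not limited to enzymes that admit or cleave sucrose. The UDP-glucose pyrophosphorylase UGP1, at 466 ± 54.8 CPM, held 38.2 ± 5.82% of it. The cytosolic invertase CINV1 at 362 ± 36.5 CPM was ahead of the sucrose synthase SUS1 at 98.4 ± 27.8 CPM. The tricarboxylic acid cycle received 0.792 ± 0.0138%, and its highest members were the aconitases ACO3 (872 ± 60.2 CPM) and ACO1 (725 ± 104 CPM). Nuclear-encoded ATP synthase subunits and carriers of mitochondria received 1.12% in C, 1.09% in D, 1.12% in B and 1.08% in A, of which AAC1 held 36.4 ± 0.294%. The share of the tricarboxylic acid cycle had an SD of 1.74% of its mean.

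Transport of water and ions was a further large item. Aquaporins, the water channels of the plasma membrane and the vacuole, received 1.32 ± 0.0611% over 19 genes, all found in every library. PIP2A led, followed by the vacuolar channels GAMMA-TIP (1799 ± 81.3 CPM) and TIP2 (1737 ± 185 CPM) and by PIP1B (1533 ± 98.9 CPM). Vacuolar proton pumps received 0.737 ± 0.0271%, with the ATPase subunit VHA-A at 1576 ± 110 CPM and the pyrophosphatase AVP1 at 1315 ± 141 CPM. Plasma membrane proton pumps received 0.386 ± 0.0194%. Transporters of nitrate, ammonium, phosphate and other nutrients received 0.258 ± 0.00597%, led by the nitrate transporter NRT1.1 at 683 ± 54.2 CPM, the phosphate transporter PHT1;1 at 323 ± 48.1 CPM and the channel NLM1 at 302 ± 21.0 CPM. Nitrogen assimilation received 0.822 ± 0.0271%, and beyond GLT1 and GSR2 its highest members were the glutamate dehydrogenase GDH2 (1161 ± 41.2 CPM) and the nitrite reductase NIR1 (604 ± 51.8 CPM).

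Tubulins and actins received 1.04 ± 0.0147%, with an SD of 1.41% of the mean, and of all these lists only the ubiquitins were more even, at 1.14%. ACT2 (1754 ± 80.4 CPM) and ACT7 (1112 ± 103 CPM) were the leading actins, and TUB4 (950 ± 82.4 CPM) and TUA4 (912 ± 72.3 CPM) the leading tubulins. Cellulose synthesis received 0.466 ± 0.0194%, led by the endoglucanase GH9A1 (731 ± 89.9 CPM), POM1, a chitinase-like protein (711 ± 51.0 CPM), and the catalytic subunits CEV1 (578 ± 76.1 CPM) and CESA1 (566 ± 22.9 CPM). Wall enzymes that cut and rejoin xyloglucan received 0.404 ± 0.0243%, led by XTH31 at 938 ± 44.4 CPM, while expansins, which loosen walls, received 0.0622 ± 0.00582%. The 10 extensins named by symbol received 0.617 ± 0.167%, the widest relative spread of all the lists, with 0.559% in C, 0.406% in D, 0.760% in B and 0.742% in A. Without D their mean was 0.687%. Genes of root hair growth received 0.458 ± 0.0442%, led by PRP3, a structural protein of the hair wall, at 1521 ± 230 CPM, and RHS19 at 774 ± 23.1 CPM.

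Defence and specialised metabolism had a visible part of the footprints. Phenylpropanoid and lignin synthesis received 0.809 ± 0.0683%, with the methyltransferases CCoAOMT1 (1649 ± 102 CPM) and OMT1 (1033 ± 150 CPM), the phenylalanine ammonia-lyase PAL1 (1425 ± 244 CPM) and the hydroxylase C4H (1085 ± 97.4 CPM). PAL1 had 1788 CPM in C, 1271 in D, 1287 in B and 1354 in A, so C stood above the other 3. Flavonoid synthesis received 0.127 ± 0.0118%. Within it the early enzymes held most of the counts. Chalcone synthase TT4 had 716 ± 84.8 CPM, F3H 284 ± 37.6 CPM and the flavonol synthase FLS1 126 ± 13.1 CPM, while DFR, at the entry to anthocyanins, had 4.07 ± 5.38 CPM and no count in C.

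Indole glucosinolates received 0.473 ± 0.0188% and aliphatic glucosinolates 0.403 ± 0.0109%. The indole branch was led by CYP81F4 (1295 ± 127 CPM), which modifies the indole ring, and by the core enzymes CYP83B1 (683 ± 35.5 CPM) and CYP79B2 (673 ± 25.2 CPM). The aliphatic branch was led by chain elongation, with IIL1 at 1006 ± 107 CPM and IMS2 at 790 ± 62.1 CPM. Enzymes that open glucosinolates and the specifier proteins that steer their products received 0.323 ± 0.0219%, with NSP1 at 1275 ± 171 CPM and NSP4 at 854 ± 90.9 CPM. Gene clusters for root triterpenes received 0.309 ± 0.0510%, led by CYP705A5 (1206 ± 211 CPM) and by THAS1, the thalianol synthase (626 ± 110 CPM). The triterpene share was 0.335% in C, 0.237% in D, 0.311% in B and 0.354% in A, lowest in D. Cytochromes P450 as a superfamily received 0.83 ± 0.068% over 224 genes, of which 155 had a root count and 14 reached a mean of 100 CPM. Glutathione transferases received 0.721 ± 0.0252%, of which GSTF9 held 41.7 ± 3.13%.

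The lists for several processes known for the root held few footprints when whole roots were extracted. Each is a chosen set of genes, so its share is not that of the whole process. Casparian strip and suberin genes, which act in the endodermis, received 0.107 ± 0.00600%, led by ESB1 at 236 ± 17.8 CPM. Auxin transport received 0.147 ± 0.0112%, led by the exporter ABCB4 at 405 ± 26.8 CPM. DNA replication and division received 0.0703 ± 0.00373%, led by TSO2, a ribonucleotide reductase subunit, at 115 ± 7.48 CPM. Plastid fatty acid synthesis received 0.151 ± 0.00604%, and jasmonate synthesis with lipoxygenases 0.0618 ± 0.00636%. Genes of the photosystems, antennae and Calvin cycle were not silent in root, with 0.152 ± 0.0156% over 29 genes, all counted in every library. Their highest member, the antenna protein LHB1B2, had 224 CPM in C, 285 in D, 260 in B and 232 in A. The share of this list was 0.150% in C, 0.172% in D, 0.152% in B and 0.134% in A, and 0.145% on average without D.

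**Figure D2:**
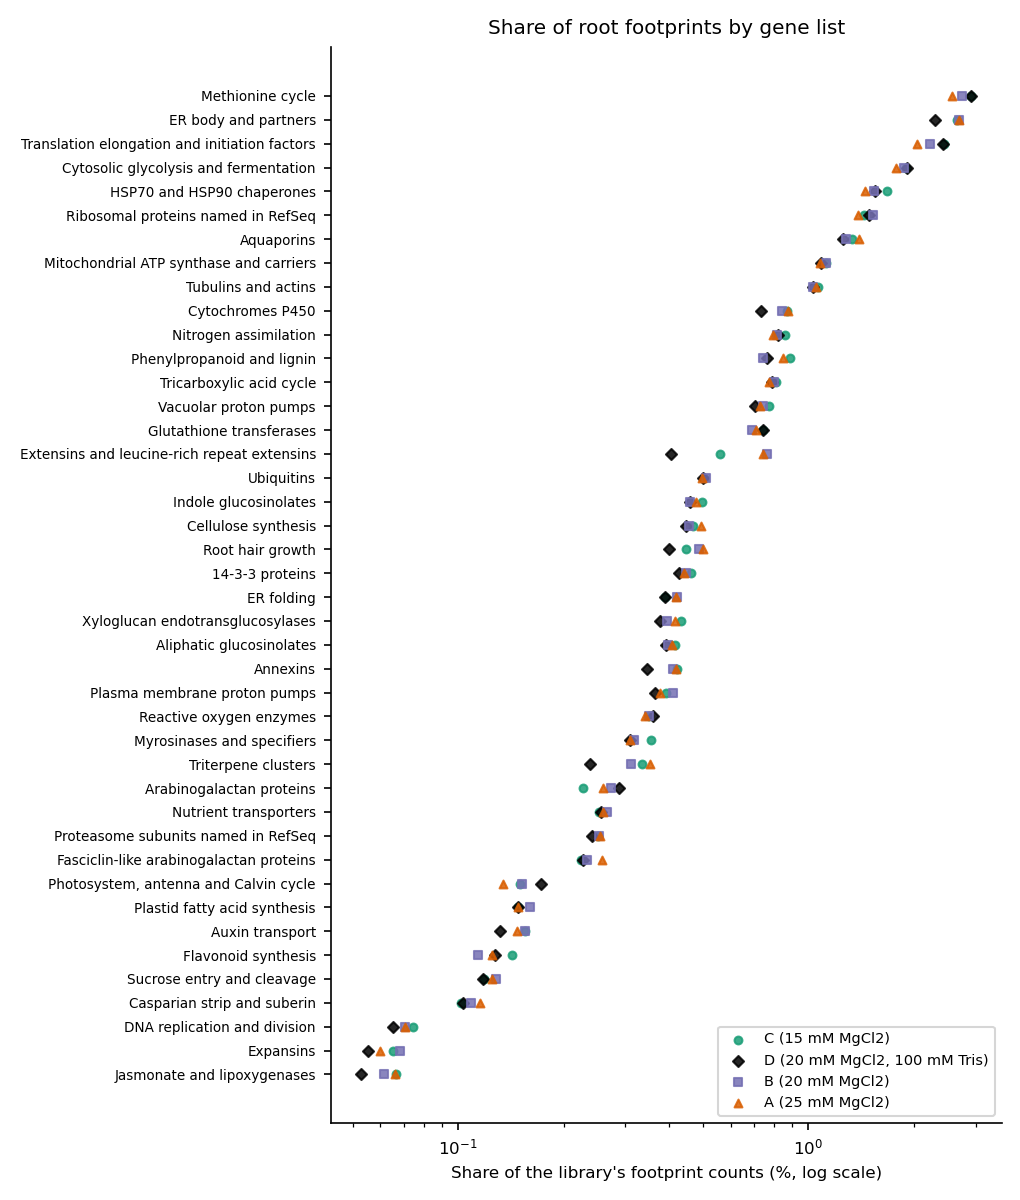
Share of the library's footprint counts, in percent on a log axis, for the 31 pathway lists and the 11 lists built from RefSeq symbols; each symbol is 1 root library. The libraries lie close together for most lists, and extensins have the widest spread, from 0.406% in D to 0.760% in B.

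Where several paralogs encode the same kind of protein, the member with the most footprints was in most families the same in every library. Of 37 families, 32 had the same leading member in all 4 libraries. The leading member held more than 50% of the family's footprints in 24 families and more than 90% in 3. Over the families the median leading share was 57.1%, and the median SD of that share over the libraries was 1.79 percentage points. These shares are of counts, since no coding lengths were used here, so a longer member has an advantage.

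The families with a single dominant member were enolase (LOS2, 96.5 ± 0.385%), cytosolic aldolase (FBA8, 96.3 ± 0.420%) and fumarase, in which the mitochondrial FUM1 held 95.4 ± 2.57% over the cytosolic FUM2. HOG1 held 89.3 ± 0.354% over SAHH2 and ATMS1 86.6 ± 0.516% over MS2 and MS3. Footprints of the S-adenosylmethionine synthetases were shared by 4 genes, with MTO3 at 36.9 ± 1.25%, MAT3 at 26.1 ± 1.34%, SAM-2 at 21.4 ± 0.679% and SAM1 at 15.6 ± 0.551%. PYK10 held 78.1 ± 0.714% of the ER body beta-glucosidases, with BGLU21 at 11.8 ± 0.543% and BGLU22 at 10.1 ± 0.606%, while BGLU18 was close to 0.

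Nitrogen and phosphate handling likewise leaned on named isoforms. GSR2 held 81.1 ± 1.79% of cytosolic glutamine synthetase. NIA1 held 58.6 ± 3.72% over NIA2 among nitrate reductases, AMT1;2 held 53.7 ± 2.91% of the AMT1 ammonium transporters, and PHT1;1 held 54.1 ± 3.54% of the PHT1 phosphate transporters. The plasma membrane proton pumps were split between HA2 (65.6 ± 0.876%), HA1 (22.8 ± 0.681%) and HA7 (6.90 ± 0.513%), and AHA10, a pump of the seed coat, had no count. In indole glucosinolate synthesis CYP79B2 held 81.6 ± 1.62% over CYP79B3, and in lignin synthesis PAL1 held 67.6 ± 2.55% and 4CL1 68.5 ± 2.78% of their families. CAT2 held 78.7 ± 4.81% of the catalases and LOX1 78.4 ± 5.10% of the lipoxygenases. In each of these families the leading member was ahead of the next in all 4 libraries.

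Among cytosolic HSP70 chaperones HSC70-1 held 77.1 ± 1.05%, and the next member, AT3G09440, held 17.1 ± 0.555%. Several structural families were shared more evenly. The highest of 12 14-3-3 proteins, GRF1, held 23.9 ± 1.84%, the highest of 9 beta-tubulins, TUB4, held 26.6 ± 1.59%, and the highest of 6 alpha-tubulins, TUA4, held 29.9 ± 1.52%. Among actins the vegetative members ACT2 (45.8 ± 0.568%), ACT7 (29.0 ± 2.84%) and ACT8 (18.9 ± 2.22%) held nearly all counts. Among cellulose synthases, CEV1 (25.7 ± 2.93%), CESA1 (25.2 ± 1.11%), CESA6 (21.4 ± 1.01%) and CESA2 (12.9 ± 0.447%) of the primary wall held the largest shares. The secondary wall members IRX3 (3.78 ± 0.824%), CESA4 (3.69 ± 0.619%) and IRX1 (3.28 ± 1.15%) held less. CESA5 (3.65 ± 0.472%) lay among these, and CESA10 (0.230 ± 0.197%) and CESA9 (0.0636 ± 0.119%) lay below them. The family therefore did not divide by wall type as a whole. CEV1 held 21.4% in D, against 27.4% in C, 27.7% in B and 26.4% in A, so that CESA1 led in D alone.

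The leading member changed with the library in 4 other families. Among vacuolar aquaporins GAMMA-TIP led in C and D and TIP2 in B and A, and their means of 36.1 ± 1.26% and 34.8 ± 1.98% did not differ beyond their spread. BIP2 and BIP1 stood at 50.7 ± 0.921% and 49.3 ± 0.919%, HSP81-2 and HSP81-3 at 44.0 ± 0.683% and 42.6 ± 1.83%, and the myrosinases BGLU34 and BGLU35 at 51.3 ± 1.77% and 48.4 ± 1.49%. The members of these last 3 pairs are near-identical in sequence, as are the elongation factor 1A genes, TUB2 and TUB3, TUA3 and TUA5, and PHT1;1 and PHT1;2. How the authors counted reads that match several genes is not given in the sources used here, so shares within these groups are uncertain. The leading share with the largest SD was that of SUS1 among sucrose synthases, 55.1% in C, 64.2% in D, 47.2% in B and 61.8% in A, a family with a sum of 174 ± 47.0 CPM.

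**Figure D3:**
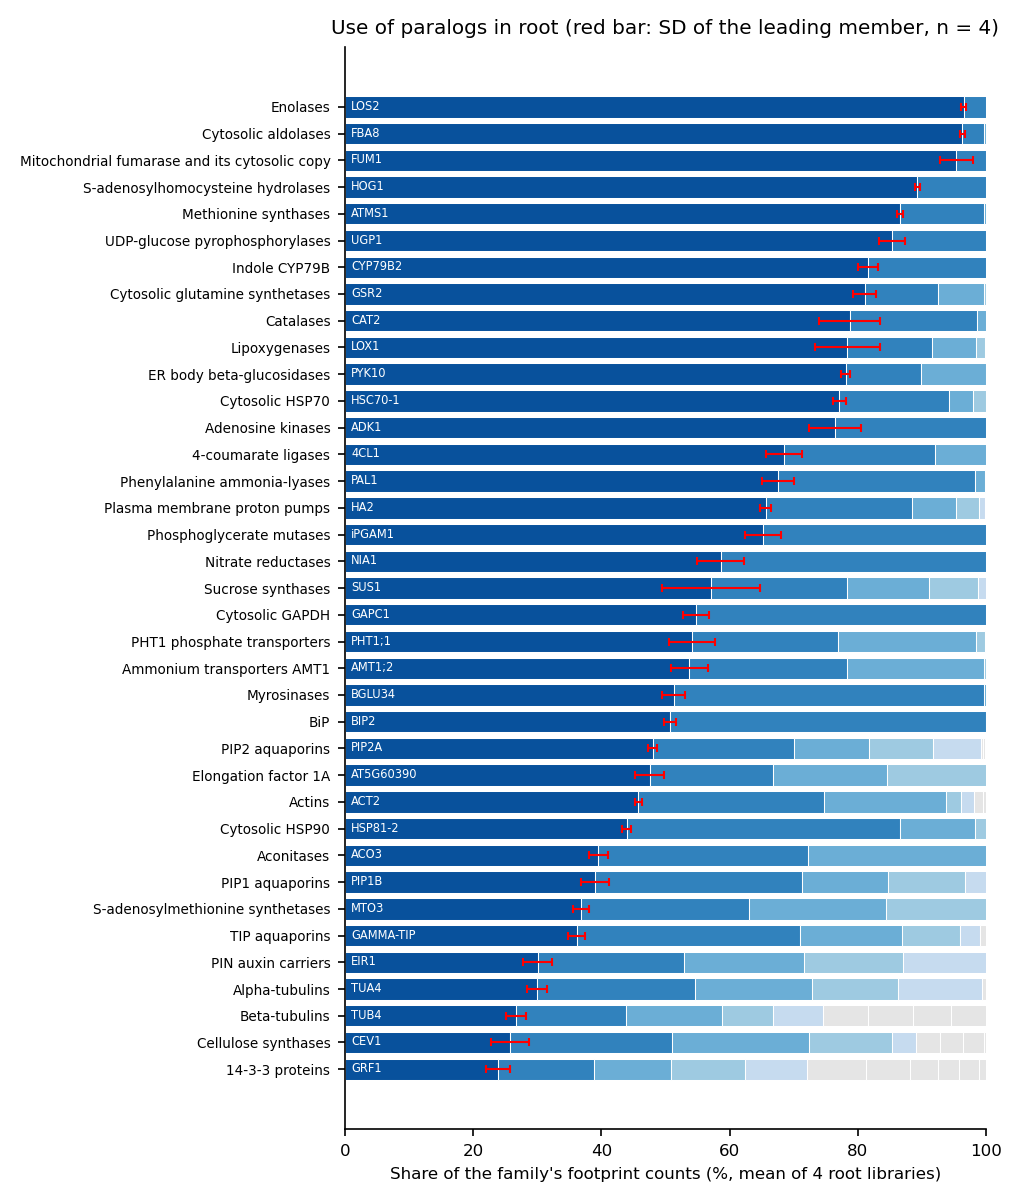
Share of each family's footprint counts taken by its members, mean of the 4 root libraries; the darkest bar is the leading member, named in white, with its SD in red, and grey marks members below the fifth. Enolase, aldolase and fumarase rest on single genes, while tubulins, cellulose synthases and 14-3-3 proteins are spread over many.

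The root label was checked against markers. All 7 root hair markers and all 8 endodermis markers were counted in every library, with sums of 3197 CPM in C, 2913 in D, 3597 in B and 3732 in A for hairs and 636, 640, 660 and 691 CPM for endodermis. Markers of xylem and pericycle (6 of 6), phloem (5 of 5), non-hair epidermis (3 of 3) and root cap (4 of 4) were found too, with mean sums of 593 ± 49.7, 188 ± 14.1, 49.1 ± 12.7 and 73.0 ± 12.7 CPM. Most of the root cap sum came from PIN3 (52.2 ± 8.81 CPM), and SMB had no count in D. Regulators of the stem cell niche had few counts, with a sum of 6.10 CPM in C, 48.2 in D, 18.8 in B and 35.8 in A over 5 genes, of which 2 were counted in every library. Of 12 leaf and shoot markers, 10 had a root count, and their sum was 682 CPM in C, 799 in D, 666 in B and 573 in A. This sum came mainly from nuclear genes for plastid proteins, such as LHB1B2, RCA (113 ± 13.1 CPM) and GUN5 (107 CPM on average). AFO and FMA, regulators of leaf polarity and stomata, had no count. Others on the list were counted at low level. TMM had 13 counts in D and 3 in B, without any in C or A. ATML1 (2.46 ± 1.46 CPM) and PDF1 (3.88 ± 1.43 CPM) were counted in every library. Of 5 seed storage genes 4 had no count. A count of 0 over the 4 libraries allows up to 3 counts, or 0.376 CPM.

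Footprints on genes encoded in the mitochondrial genome differed more between the libraries than those of any of the lists above. They made up 0.593% of the counts in C (95% Wilson interval 0.581 to 0.604%), 2.25% in D (2.23 to 2.28%), 0.772% in B (0.759 to 0.786%) and 1.04% in A (1.03 to 1.05%). Intervals cover counting error only, and reads made by PCR without molecular identifiers are not independent molecules. The share was highest in D, and among the buffers with 200 mM Tris it was higher with more salt. Mitochondria of plants keep a small genome for respiratory chain subunits and ribosomal proteins, translated by ribosomes of their own inside the organelle. Of 122 mitochondrial loci, 98 had a root count, and the 3 highest held 48.4 ± 0.342% of the mitochondrial counts, with 48.0 to 48.8% in each library.

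The highest locus, ATMG01360, had 1218 CPM in C, 4678 in D, 1503 in B and 2067 in A. ATMG01190 had 1082, 3663, 1285 and 1704 CPM and ATMG00160 594, 2582, 919 and 1263 CPM in the same order. Each was lowest in C and highest in D. This order, C below B below A below D, was shared by 20 of the 21 mitochondrial loci of at least 100 CPM, and all 21 were highest in D. The level in D was 2.76 times that in B at the median of these loci, with a range of 1.70 to 3.96. Loci whose identifiers begin with AT2G07 lie in or around the stretch of chromosome 2 that carries a copy of mitochondrial DNA, and they followed, with 0.283% of the counts in C, 0.942% in D, 0.359% in B and 0.461% in A. Of 10 such loci of at least 100 CPM, 8 had the same order. Reads from this copy and from the organelle cannot be told apart here. Plastid-encoded genes made up 0.0882% in C, 0.144% in D, 0.0959% in B and 0.0969% in A, highest in D and otherwise nearly level.

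**Figure D4:**
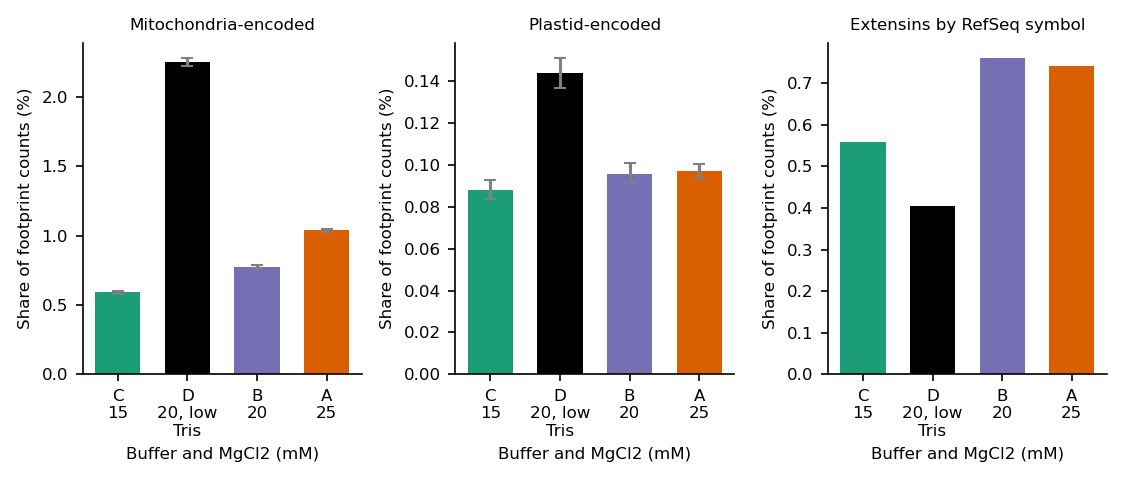
Share of root footprint counts, in percent, on mitochondria-encoded, plastid-encoded and extensin genes by extraction buffer, with MgCl2 in mM below; grey bars on the organelle panels are 95% Wilson intervals. Buffer D is highest for both organelles, with 2.25% and 0.144%, and lowest for extensins, with 0.406%.

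Most well-covered genes held their level across the buffers. Over the 1978 genes of at least 100 CPM the median SD was 12.4% of the mean, where counting error alone gives 5.46%, and 654 genes stayed under 10%. An SD above 50% was found for 25 genes, and all 25 were mitochondrial or AT2G07 loci, as were 28 of the 50 genes with the widest spread. Computed without D, 17 of the 50 widest were. The 10 genes with the largest spread beyond counting error were ATMG00640, ATMG00070, ATMG00060, AT2G07671, ATMG01080, AT2G07751, AT2G07727, ATMG01360, AT2G07687 and ATMG00160, with an SD of 65.1 to 77.9% of the mean. Outside the organelles, and chosen after their values were seen, the extensin-like LRX2 (45.1%), FAH1, a hydroxylase of lignin synthesis (42.7%), and AT2G43150 (42.2%) spread most. LRX2 had 112 CPM in C, 37.5 in D, 121 in B and 147 in A, and FAH1 had 112, 44.6, 104 and 151 CPM in the same order. Both were lowest in D.

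**Figure D5:**
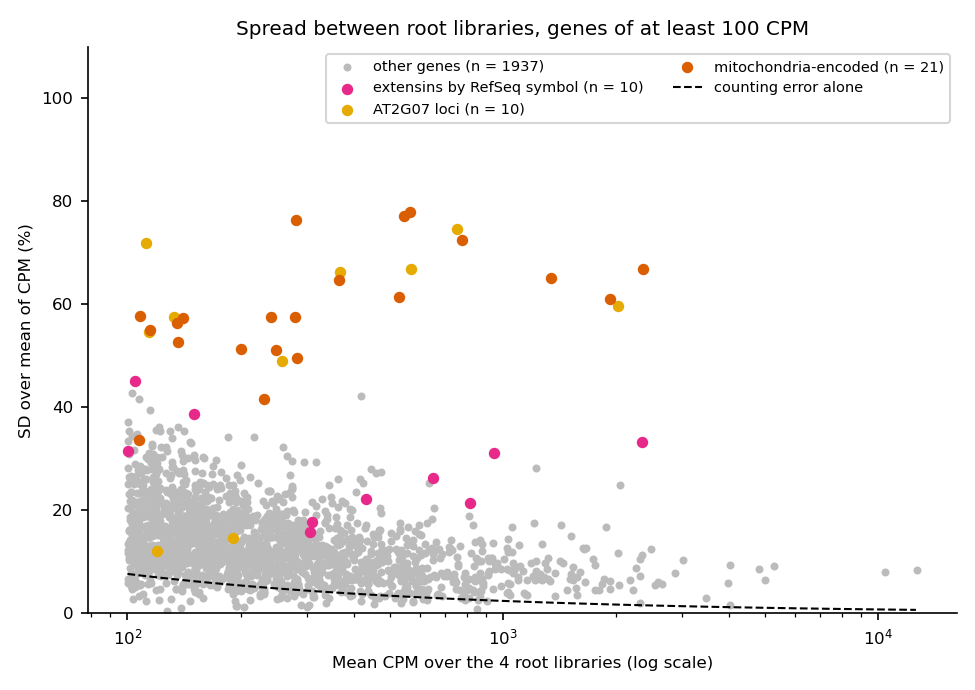
SD over mean of CPM across the 4 root libraries, in percent, against mean CPM on a log axis for the 1978 genes of at least 100 CPM; the dashed line is the counting error alone. Most mitochondrial and AT2G07 loci lie above the other genes, and among extensins LRX2 reaches 45.1%.

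Whether levels followed the salts was tested across all genes with a trend in MgCl2, which KCl followed at a fixed ratio, so the salts cannot be told apart. With edgeR's quasi-likelihood test and Benjamini-Hochberg adjustment, 0 of 13538 genes passed at 0.05, a background of 0%. Before adjustment 182 genes had a p under 0.05, and DESeq2 called 0 genes as well, with 252 under 0.05 before adjustment. The smallest p belonged to ATMS1, with 11418 CPM in C, 10558 in D, 10195 in B and 9384 in A and a slope of -0.30 ± 0.08 log2 units (SE) per 10 mM MgCl2. The chaperone cpHsc70-1, with 388, 226, 279 and 206 CPM, and AT4G02850, with 53.3, 32.1, 24.3 and 9.38 CPM, came next, and all 3 had an adjusted p of 1 in edgeR. None of the lists had a called member.

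That result depended on library D. With a Tris term, which lets D stand apart, 21 of 15484 genes passed in edgeR, 0.136%, of which 16 were higher with more salt and 5 lower, and without D 18 passed. The 21 included 8 mitochondrial and 3 AT2G07 loci, all higher with more salt, led by ATMG00160 at a slope of 1.06 ± 0.13. EXT3 rose by 0.50 ± 0.11 and AT2G43150 by 1.02 ± 0.21, while ATMS1 fell by 0.31 on the log2 scale and AT1G07930, listed with elongation factor 1A, fell by 0.56, each per 10 mM MgCl2. The Tris term fits D exactly, so these slopes rest on A, B and C, with 1 library at each salt level. The calls without D rest on the same libraries. The fit left 1 residual degree of freedom and a spread shared by all genes, so its calls do not measure spread between replicates. Of 23 translation factors tested, 2 were lower with more salt and none higher, where 5 of all 15484 genes were lower. The 2 lower ones were AT1G07930 and LOS1. The list median was -0.29 against 0.01 over all genes, but a low median was not particular to translation factors. It was -0.43 for expansins and -0.35 for the photosystem, antenna and Calvin cycle list, and 0.44 for Casparian strip and suberin genes. None of these other lists had a called member. AT1G07930 is among the near-identical elongation factor 1A genes, so its own counts are uncertain.

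Buffers D and B differ in Tris alone, and each is 1 root library. The Tris term of the edgeR fit called 355 of 15484 genes, 2.29%, with 111 higher in D (0.717%) and 244 lower in D (1.58%). The fit left 1 residual degree of freedom and a spread shared by all genes. Library D was fitted exactly by the Tris term, which sets D against a straight line in salt through A, B and C. These calls are therefore not a contrast of D with B alone. They rest on 1 library per buffer, take in any departure of A and C, and assume a linear effect of salt. The split of directions depended on the setting. DESeq2 called 70 genes, 40 higher and 30 lower in D, and testing only genes of at least 100 CPM gave 44 in each direction. A fit over all 8 libraries, with terms of its own for root and the same single root library D, called 58 genes, 48 higher and 10 lower, and 30 of the 111 and 9 of the 244 were among them. Without root A, B or C the same fit called more genes, but root then had no residual left and shoot alone set the spread. The rise therefore does not measure how stable these calls are.

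The calls higher in D were organelle loci in large part. They held 30 mitochondrial, 13 AT2G07 and 3 plastid loci. Of 49 mitochondrial loci tested, 30 were higher in D and none lower, with a median log2 difference of 1.61 against -0.07 over all genes. Of 32 AT2G07 loci tested, 13 passed upwards and 1 downwards, and their median difference was 1.40. The 10 smallest p-values all belonged to these groups. ATMG01360 was higher in D by 1.57 ± 0.08, with an edgeR adjusted p of 5.7e-85 in the root fit and 4.3e-04 in the fit of 8 libraries, which takes its spread partly from shoot and is no independent check, since the root D library is the same. ATMG01190 (1.44 ± 0.08), AT2G07698 (1.41 ± 0.08), ATMG00160 (1.53 ± 0.10), AT2G07671 (1.75 ± 0.12), ATMG01080 (1.71 ± 0.12), ATMG00640 (1.84 ± 0.14), ATMG00070 (1.81 ± 0.14), AT2G07727 (1.58 ± 0.14) and ATMG00220 (1.45 ± 0.14) did likewise. All 10 passed in the 8-library fit, with edgeR adjusted p-values up to 0.0051, and in DESeq2.

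The calls lower in D were mostly of low level. Of the 244, 123 had no count in D and 170 had a mean under 30 CPM, and D was the shallowest library. At 100 CPM and above, outside the mitochondrial and AT2G07 loci, 10 genes were higher and 37 lower in D, and they are named here after their values were seen. The lower ones held 7 of the 10 extensins, whose median difference was -0.69, none being higher. EXT3 had 1469 CPM in D and 3173 CPM in B, and its Tris term, against the line through A, B and C, was -0.85 ± 0.09. HRGP1 had 535 CPM in D and 1150 CPM in B, with a Tris term of -1.02 ± 0.13. EXT3 did not pass in DESeq2, whereas HRGP1 did. PYK10 was lower in D by a small amount, 11150 CPM in D and 13372 CPM in B, with a Tris term of -0.26 ± 0.04. NAI2 was lower likewise, at -0.37 ± 0.08. The triterpene genes CYP705A5 (-0.55 ± 0.11), THAS1 (-0.55 ± 0.15) and CYP705A12 (-1.08 ± 0.32) were lower too, 3 of 11 tested, where 1.58% of all genes tested were lower. In DESeq2 CYP705A5 passed, whereas THAS1 and CYP705A12 did not. Among those higher in D were the small GTPase ARF1A1C, with 874 CPM in D and 548 CPM in B, and HOG1, with 5941 CPM in D and 5191 CPM in B.

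None of these 47 genes passed in the fit of 8 libraries, where their edgeR adjusted p-values ran from 0.053 to 0.50 with the same direction in all 47, and 22 of them passed in DESeq2. Leaving out root A, B or C cannot show how stable that outcome is, since root then has no residual left in the fit of 8 libraries. EXT3 had an adjusted p of 0.15 and PYK10 0.15 in that fit, from edgeR. In buffer D the root hair marker sum was lowest and the leaf and shoot marker sum highest of the 4 libraries, and the part of this in the differences was not tested.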

How the data were processed

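Ribosome footprints of 4 root libraries were analysed, with 4 shoot libraries used only in an alternative fit. The authors deposited raw counts per coding sequence, whole numbers without normalization, per the file headers and values. The submitters' processing notes list TAIR10 as the build and, with no roles, the tools STAR 2.5.1b and Bowtie2. How footprints were counted, filtered by length or assigned when they match several places is not given in the sources used here. Per the labels' protocols, RNase made the footprints, spin columns purified the ribosomes, and rRNA depletion came before library construction. Root totals ran from 1120218 to 3410266 counts.

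Names came from a RefSeq table of TAIR10.1, which matched 26719 of 27416 identifiers and 0 of 210 organelle loci. CPM and shares used column totals (Python 3.11.15, pandas 2.3.3). Wilson intervals were at 95%. The planned division by coding length was not run, because no coding lengths were at hand, and no sequences were used here. Groups came from the titles. edgeR 4.0.16 in R 4.3.3 was run with TMM (factors 0.985 to 1.01), filterByExpr (minimum count 10) and the quasi-likelihood test, adjusted by Benjamini-Hochberg and called at 0.05. DESeq2 1.42.0, library totals, no filter, a fit of all 8 libraries and leaving out each library were alternatives. Scripts were tested on simulated data. SEs are the absolute log2 value over the square root of F. Members, lists and tests were chosen with earlier results of these data known, and the 11 symbol lists after seeing the files. Named genes were the 30 highest, up to 4 per pathway list, family members, the 10 of widest spread, the smallest p-values of each buffer test and the 3 highest mitochondrial loci, plus genes said to be chosen after their values were seen, the leading members of the symbol lists, and a few further list members.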

Additional observations from a re-analysis of the deposited data

Results flagged for a closer look

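In 6 of 135 items examined, 1 of the 4 root libraries lay far from the other 3, with a gap to the nearest, relative to the whole range, above Dixon's 95% critical value. Chance flags about 1 in 20 such items, which is 6.75 here, so the number of items is no more than chance gives. Library D was the distant one in 3 of them. The plastid-encoded share was 0.144% in D and 0.0882 to 0.0969% in the others. The ER body share was 2.29% in D and 2.66 to 2.69% in the others. The annexin share was 0.347% in D and 0.412 to 0.420% in the others. Library B stood apart for plastid fatty acid synthesis, with 0.160% against 0.148 to 0.149%. Library A stood apart for BGLU34, which held 48.6% of the myrosinase counts there against 52.2% in each of the others, and for AT5G60390, with 4510 CPM against 5133 to 5196 CPM.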

How the results depend on the processing

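No paired analysis was possible because the root libraries form 1 group with 1 library per buffer. The share of the 10 highest genes ranged from 5.66 to 5.84% and the number of genes holding 50% of counts from 768 to 787 when a library was left out, and the detected genes from 16451 to 17363. At least 10 counts were found for 13016 genes on average. Among nuclear genes only, the shares of plastid fatty acid synthesis (0.141%) and ubiquitins (0.510%) moved by more than their SD, and the other list shares by less. Means of 4 libraries move by less than their SD when 1 is left out by construction, so such shares are no measure of stability. The salt trend called 0 genes with library totals, DESeq2, no filter, all 8 libraries or without the mitochondrial and AT2G07 loci, 21 with a Tris term, and 0 to 18 with a library left out, the 18 being without D. Buffer D minus B called 355 genes, 345 with library totals, 272 with no filter and 272 without mitochondrial and AT2G07 loci, but 70 in DESeq2 (40 higher, 30 lower) and 58 with all 8 libraries (48 higher, 10 lower), which moved the split of directions. Chosen after seeing the data, testing only genes of at least 100 CPM gave 88 calls (44 in each direction), and the 8-library fit without root A, B or C gave 707, 999 and 661, where fewer libraries set the spread. What is called D minus B here is the Tris term, which sets D against the line through A, B and C. Leaving out a library from that root fit left no residual degrees of freedom. Shares per coding length were not run. Of 228 further values of named genes for D minus B, 151 kept their call and 77 fell short of it, none with a changed direction. Low depth in D limits genes of low level.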

Other observations

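In the 4 shoot libraries, used otherwise only for the spread in the fits of 8 libraries, mitochondria-encoded genes made up 0.355% of the counts in buffer C, 0.636% in D, 0.427% in B and 0.516% in A, and the AT2G07 loci 0.157, 0.277, 0.174 and 0.224% in the same order. No test between the tissues was made.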
